A study of Rattus norvegicus with 9 samples.

Results

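The genes described here encode the contractile and cytoskeletal proteins of smooth muscle cells and of contractile stroma, and they were followed in 9 RNA sequencing libraries of rat spleen. They are Acta2, Actg2, Myh11, Myl9, Mylk, Tagln, Cnn1, Tpm2, Lmod1 and Des, taken by gene name and not by a cut on a measured value. Earlier results of these data were known when the 10 genes were chosen. Each name matched a single entry, so the set is 10 of the 34408 gene entries counted, and all 10 passed the filter on low counts that left 15954 genes for testing. No library of any group lacked reads for any of the 10 genes, whose lowest count in a library was 97, for Actg2.

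The study compared 3 groups of wild-type rats with 3 libraries each. Rats of the TAA+celecoxib group were injected intraperitoneally with thioacetamide (TAA), a liver toxin used to produce cirrhosis, with 200 mg/kg every 3 days over 8 weeks, then with 100 mg/kg at the same interval over a further 8 weeks, and were given celecoxib, an inhibitor of cyclooxygenase 2, at 20 mg/kg/day during the last 8 weeks. Rats of the TAA group had the same injections without celecoxib, and the control group is labelled only as control, with no vehicle named. The labels give spleen as the tissue and splenocytes as the cell type, and strain, sex and age are not given in them. Whether the libraries of a group are from different animals is not stated. The p-values below therefore set group differences only against the spread between these libraries, which may not be a spread between animals.

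Smooth muscle cells contract when calcium activates myosin light chain kinase, which phosphorylates the regulatory light chain of myosin, so that myosin heavy chain pulls on actin filaments. Tropomyosin, calponin and transgelin lie along those filaments, leiomodin nucleates them, and desmin filaments tie the contractile apparatus to the rest of the cell. Many of these genes are switched on together by serum response factor and its coactivator myocardin, which act through a DNA motif called the CArG box. In the spleen such cells form the walls of arteries and part of the capsule and trabeculae, and some reticular cells and pericytes also carry contractile proteins.

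Promoter sequence from RefSeq (build GRCr8) was at hand for 6 of the 10 genes: Acta2, Actg2, Cnn1, Des, Mylk and Tpm2. The 250 bases before the start of Acta2 and Tpm2 and of Cnn1 and Actg2 are shown because these are the pairs of genes whose levels followed each other most closely from library to library, and capitals mark CArG boxes with at most 1 C or G in the A/T core. The window of Acta2 lies at chr1:241172504-241172753 on the minus strand, that of Tpm2 at chr5:62575727-62575976 on the minus strand, that of Cnn1 at chr8:28908187-28908436 on the plus strand and that of Actg2 at chr4:117594040-117594289 on the minus strand.
Acta2: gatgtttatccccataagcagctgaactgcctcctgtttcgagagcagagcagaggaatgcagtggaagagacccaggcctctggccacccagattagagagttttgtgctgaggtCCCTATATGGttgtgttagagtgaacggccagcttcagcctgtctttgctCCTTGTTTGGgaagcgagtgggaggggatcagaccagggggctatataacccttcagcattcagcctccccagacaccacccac
Tpm2: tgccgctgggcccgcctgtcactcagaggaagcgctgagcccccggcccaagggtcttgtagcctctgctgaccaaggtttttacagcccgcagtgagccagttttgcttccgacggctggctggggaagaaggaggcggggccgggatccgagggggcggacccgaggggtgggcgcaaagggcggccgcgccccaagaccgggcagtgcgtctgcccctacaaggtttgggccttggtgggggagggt
Cnn1: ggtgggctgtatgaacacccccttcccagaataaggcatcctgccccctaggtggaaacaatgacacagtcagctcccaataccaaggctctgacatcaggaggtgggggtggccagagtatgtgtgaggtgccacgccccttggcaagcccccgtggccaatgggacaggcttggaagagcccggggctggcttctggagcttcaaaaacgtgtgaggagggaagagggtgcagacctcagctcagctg
Actg2: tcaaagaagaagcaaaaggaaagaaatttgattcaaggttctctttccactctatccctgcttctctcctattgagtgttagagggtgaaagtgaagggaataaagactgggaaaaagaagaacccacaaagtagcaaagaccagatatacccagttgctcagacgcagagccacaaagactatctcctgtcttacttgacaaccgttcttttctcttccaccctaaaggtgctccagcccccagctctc
The window of Acta2 holds 2 such matches, CCCTATATGG at 134 to 125 bases and CCTTGTTTGG at 84 to 75 bases before the start. None of the other 5 windows holds one, and 8.08% of 33469 rat promoter windows of the same length do. An exact CArG box, with A or T alone in its core, stands in none of the 6 windows and in 1.5% of all windows. The motif CATTCC, which TEAD factors recognise, was searched on both strands, does not overlap the CArG matches, and stands in the windows of Acta2 (196 to 191 bases before the start) and Mylk (36 to 31), against 12.1% of all windows. TATAAA, also searched on both strands, stands in none of the 6 and in 12.9% of all. These matches describe letters in a window and were not tested as binding sites.

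Library totals ran from 14211789 to 19014761 counts, and levels are given in CPM (counts over the TMM library size, brought to 1 common size), in which a single count was worth 0.0522 to 0.0710. The 10 genes together took 0.0955% to 0.175% of a library's counts. TAA+celecoxib 1 and control 1 stood apart from the other 7 libraries on the first principal component of all tested genes (31.3% of the variance, at -60.3 and -63.2, the others between -1.73 and 50.1). The summed level of 15 measured macrophage markers was 2715 CPM in library TAA+celecoxib 1 and 3396 in control 1, against 6128 to 10390 CPM in the other libraries. That of 16 measured endothelial markers was 825.6 CPM in library TAA+celecoxib 1 and 835 in control 1, against 1478 to 2137 CPM elsewhere.

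Per gene length, transgelin and the light chain Myl9 led and leiomodin 1 came last. FPKM, a count scaled by gene length and library, allows levels to be compared between genes. Averaged over the 9 libraries (mean ± SD, n = 9), Tagln stood at 242.9 ± 75.5 FPKM, Myl9 at 186 ± 41.5, Acta2 at 101 ± 37.5, Des at 43.4 ± 3.83, Tpm2 at 37.9 ± 16.6, Mylk at 37.2 ± 5.72, Myh11 at 14.7 ± 3.53, Cnn1 at 8.30 ± 3.66, Actg2 at 8.18 ± 4.14 and Lmod1 at 1.70 ± 0.285 FPKM. Tagln was above Myl9 in 8 of 9 libraries, the exception being control 3, and Myl9 was above Acta2, and Acta2 above Des, in all 9. Tpm2 and Mylk were not ordered beyond their spread, since Tpm2 was above Mylk in 3 of 9 libraries. Des was above Tpm2, and Cnn1 above Actg2, in 7 of 9. Lmod1 was last in every library.

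**Figure D1:**
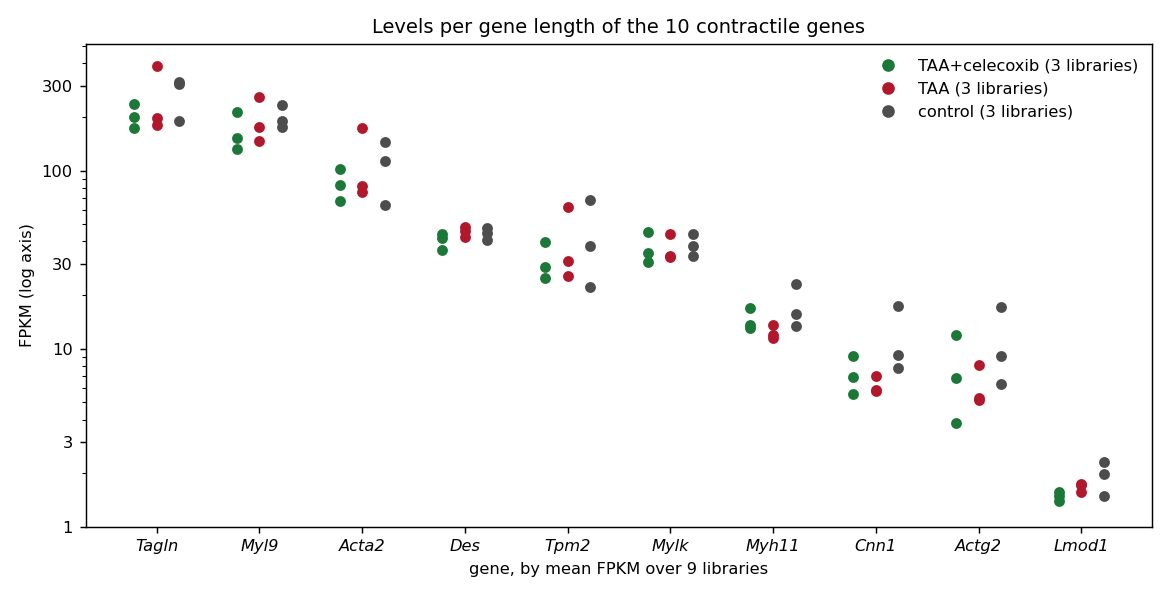
Level of each of the 10 genes in FPKM (log axis), 1 point per library, with the TAA+celecoxib, TAA and control libraries side by side and genes ordered by their mean. Tagln spans 172 to 387 FPKM and Lmod1 1.40 to 2.31 FPKM, and the 3 groups overlap for most genes.

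Between libraries of the same group, the highest and lowest levels lay 1.56- to 2.32-fold apart for Acta2 and 1.58- to 3.09-fold apart for Actg2. Acta2, smooth muscle alpha actin (ENSRNOG00000058039, chromosome 1, 252537615 to 252550394, minus strand, in the coordinates of the deposited files, whose build is not settled), had 146, 93.8 and 116 CPM in TAA+celecoxib libraries 1, 2 and 3, 115, 244.5 and 106 CPM in TAA libraries, and 206, 158 and 88.7 CPM in control libraries. TAA 2 was the highest of the 9 and control 3 the lowest, 2.76-fold apart, and the 3 groups overlapped. Actg2, smooth muscle gamma actin (ENSRNOG00000029401, chromosome 4, 115215060 to 115239723, minus strand), had 10, 16.9 and 5.47 CPM with TAA+celecoxib, 7.39, 11.6 and 7.52 CPM with TAA, and 24.8, 12.9 and 8.94 CPM in control libraries. Control 1 was the highest and TAA+celecoxib 3 the lowest, 4.54-fold apart, the widest range among the 10 genes. Actin genes share long stretches of coding sequence, and how reads that match several of them were counted is not given in the sources used here, so the split between Acta2 and Actg2 is uncertain.

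The motor protein genes lay closer together. Myh11, smooth muscle myosin heavy chain (ENSRNOG00000057880, chromosome 10, 764421 to 859184, plus strand), had 116, 91.0 and 87.6 CPM with TAA+celecoxib, 80.9, 92.0 and 76.8 CPM with TAA, and 157, 106 and 89.7 CPM in control libraries. TAA 2 overlapped control 3, and control 1 stood above every other library. Myl9, the regulatory light chain (ENSRNOG00000020246, chromosome 3, 152857592 to 152863960, plus strand), had 151, 168 and 236 CPM with TAA+celecoxib, 196, 287.5 and 163 CPM with TAA, and 197, 259 and 210.3 CPM in control libraries. Mylk, myosin light chain kinase (ENSRNOG00000002215, chromosome 11, 69013050 to 69223158, minus strand), had 252, 276 and 366 CPM with TAA+celecoxib, 268, 355 and 264 CPM with TAA, and 273, 355 and 301 CPM in control libraries. For Myl9 and Mylk the groups overlapped throughout, and control 1, the highest library for Myh11, was in the middle or lower part of the range.

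Among the proteins bound to actin filaments, calponin 1 showed the clearest ordering of libraries. Cnn1, calponin 1 (ENSRNOG00000027736, chromosome 8, 23113048 to 23121761, plus strand), had 10.7, 13.5 and 8.40 CPM with TAA+celecoxib, 8.95, 10.7 and 8.67 CPM with TAA, and 26.6, 14.01 and 11.7 CPM in control libraries. All 3 TAA libraries were below all 3 control libraries, and control 1 was well above every other library. Tagln, transgelin (ENSRNOG00000017628, chromosome 8, 50222896 to 50231357, minus strand), had 259.5, 215 and 299 CPM with TAA+celecoxib, 251.5, 490.3 and 227 CPM with TAA, and 392, 398 and 236 CPM in control libraries. Tpm2, beta tropomyosin (ENSRNOG00000016731, chromosome 5, 59016622 to 59025631, minus strand), had 61.0, 37.2 and 43.2 CPM with TAA+celecoxib, 47.0, 93.8 and 38.2 CPM with TAA, and 104, 56.8 and 32.9 CPM in control libraries. For Tagln and Tpm2 a high TAA 2 library stood among low TAA libraries, and the groups overlapped. Lmod1, leiomodin 1 (ENSRNOG00000051548, chromosome 13, 52147555 to 52190228, plus strand), had 6.52, 7.01 and 6.77 CPM with TAA+celecoxib, 7.18, 7.88 and 7.73 CPM with TAA, and 10.6, 8.95 and 6.71 CPM in control libraries. The TAA+celecoxib libraries were all below the TAA libraries for Lmod1, while the control libraries reached from below the TAA libraries to above them.

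Des, which encodes desmin (ENSRNOG00000019810, chromosome 9, 82556573 to 82564294, plus strand), was the steadiest of the 10 genes. It had 99.1, 77.8 and 91.0 CPM with TAA+celecoxib, 93.0, 106 and 99.4 CPM with TAA, and 99.7, 104 and 88.5 CPM in control libraries. Its highest library was 1.36-fold above its lowest, and no group stood apart. The pooled within-group SD of Des was 0.135 on the log2 CPM scale, and 13.4% of all tested genes had a lower one. The within-group SDs of Actg2 (0.67), Tpm2 (0.65) and Acta2 (0.56) were above those of 84.2%, 83.6% and 78% of tested genes (median over all genes 0.30).

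**Figure D2:**
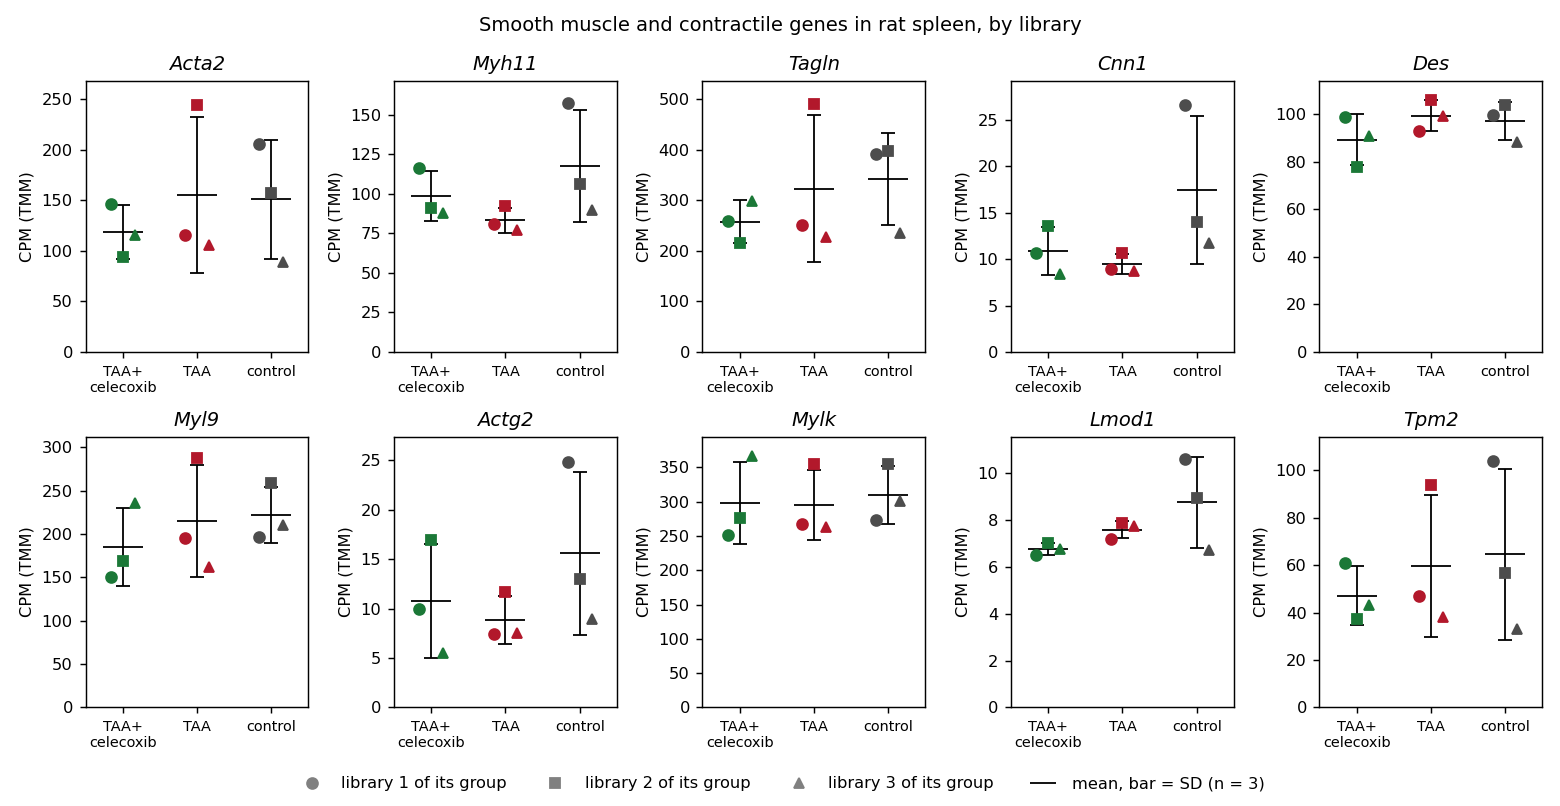
CPM (TMM) of each of the 10 genes in every library of the TAA+celecoxib, TAA and control groups, with the marker shape giving the library number and the line and bar giving the mean and SD (n = 3). Control 1 is the highest library for Myh11, Cnn1, Actg2, Lmod1 and Tpm2, and TAA 2 for Acta2, Tagln, Des and Myl9.

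The genes did not vary as a single block. Control 1 was the highest of the 9 libraries for 5 genes (Myh11, Cnn1, Actg2, Lmod1 and Tpm2), TAA 2 for 4 (Acta2, Tagln, Des and Myl9) and TAA+celecoxib 3 for Mylk. The mean log2 CPM over the 10 genes came to 5.94, 5.85 and 5.82 with TAA+celecoxib, 5.79, 6.33 and 5.71 with TAA, and 6.55, 6.24 and 5.78 in control libraries. Control 1, TAA 2 and control 2 were thus above the other 6 libraries, which lay between 5.71 and 5.94. In bulk RNA, fewer contractile cells and less RNA of these genes per cell cannot be told apart. Neither can a different share of capsule, trabeculae or vessel wall in the material taken. The labels' terms, spleen and splenocytes, do not settle whether pieces of tissue or cell suspensions were used.

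Within the 10 genes, 3 sets were drawn up after their values were seen. Genes of a set moved in step from library to library. Over 9 libraries that share their depth and tissue makeup across genes, Pearson's r of log2 CPM, given as a description, was 0.97 between Acta2 and Tpm2, 0.92 between Acta2 and Tagln, and 0.84 between Tagln and Tpm2. It was 0.92 between Cnn1 and Actg2, 0.87 between Myh11 and Cnn1, and 0.75 between Myh11 and Actg2. Myl9 and Mylk, the light chain and its kinase, had an r of 0.91. Between the set of Cnn1, Actg2 and Myh11 and the pair of Myl9 and Mylk, r ran from -0.20 to 0.02. The set of Acta2, Tagln and Tpm2 was not separate from the others. Its r ran from 0.36 to 0.71 with Cnn1, Actg2 and Myh11, and from 0.13 to 0.78 with Myl9 and Mylk. With group means removed, r was 0.91 between Myh11 and Tpm2 and 0.68 between Myh11 and Actg2. Over all 45 pairs the median r, without that removal, was 0.49.

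Ratios within a library restate the same values in another form. They were also chosen after the values were seen, so they carry no test. Acta2 over Tpm2 in CPM kept between 1.98 and 2.78 in all 9 libraries, although each gene ranged more widely. Acta2 over Cnn1 came to 13.7, 6.93 and 13.8 with TAA+celecoxib, 12.9, 22.9 and 12.2 with TAA, and 7.73, 11.3 and 7.56 in control libraries. All 3 TAA values lay above all 3 control values, and the TAA+celecoxib values lay on both sides of them. Mylk over Myh11 came to 2.16, 3.03 and 4.18 with TAA+celecoxib, 3.31, 3.86 and 3.44 with TAA, and 1.73, 3.35 and 3.35 in control libraries. The lowest values were those of TAA+celecoxib 1 and control 1.

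**Figure D3:**
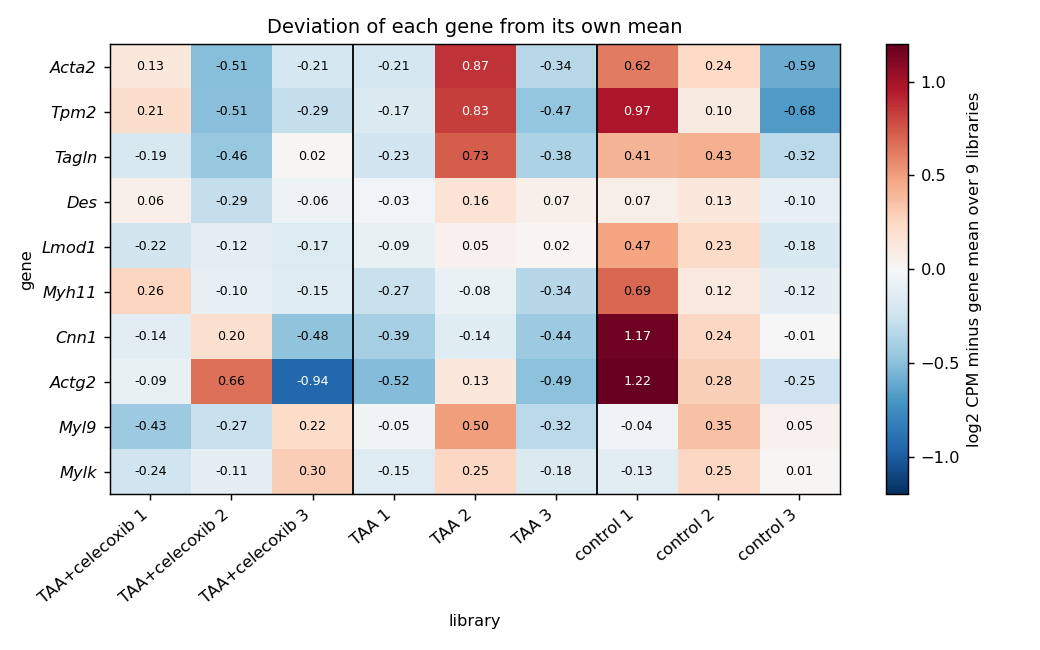
Log2 CPM of each of the 10 genes in each library minus the gene's mean over 9 libraries, with TAA+celecoxib, TAA and control libraries from left to right and genes ordered by set. Acta2, Tpm2 and Tagln are at 0.87, 0.83 and 0.73 in TAA 2, while Cnn1 and Actg2 are at 1.17 and 1.22 in control 1.

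The first comparison, TAA against control, asks what the toxin did to the contractile genes of the spleen. None of the 10 passed the test (edgeR quasi-likelihood, Benjamini-Hochberg adjusted p under 0.05 over 15954 genes, 2-sided), and neither did any other gene (0% of genes tested). At an unadjusted p under 0.05 edgeR had 957 genes (6% of those tested). DESeq2, another count model, called 58 genes and limma-voom called 0, with 0 of the 10 members under either. Cnn1 and Myh11 were the only members with an unadjusted p under 0.05, both with lower fitted levels with TAA, against 3.15% of all genes with such a p in that direction. Cnn1 averaged 9.44 ± 1.09 CPM with TAA and 17.4 ± 8.03 CPM in control libraries (SD, n = 3 each), a log2 fold change of -0.89 (SE 0.32, 95% interval -1.61 to -0.16, edgeR adjusted p = 0.7877, unadjusted p = 0.02201). It was the only member whose groups did not overlap, as 7.89% of all genes did in that direction. Myh11 averaged 83.2 ± 7.87 CPM with TAA and 118 ± 35.4 CPM in control libraries, a log2 fold change of -0.50 (SE 0.21, edgeR adjusted p = 0.7877, unadjusted p = 0.04194). Both values depended on control 1: without it the log2 fold change of Cnn1 was -0.45 and that of Myh11 was -0.23, with unadjusted p-values of 0.09807 and 0.1887 (edgeR adjusted p = 0.9996 for each). The unadjusted p-values were also above 0.05 without TAA 1 (0.05938 for Cnn1 and 0.08582 for Myh11, edgeR across all genes) and without TAA 3 (0.06375 and 0.1125), and that of Myh11 also without TAA+celecoxib 2 (0.05269) or 3 (0.05148).

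Actg2 averaged 8.85 ± 2.42 CPM with TAA and 15.6 ± 8.27 CPM in control libraries, with a log2 fold change of -0.81 whose 95% interval reached from -1.89 to 0.26 (edgeR adjusted p = 0.7877). Without control 1 the log2 fold change of Actg2 was -0.31, that of Lmod1 -0.04, that of Acta2 0.34 and that of Tpm2 0.41. For Acta2 the means were 155 ± 77.4 CPM with TAA and 151 ± 59.0 CPM in control libraries, a log2 fold change of 0.04 with a 95% interval of -0.83 to 0.91 (edgeR adjusted p = 0.9816). With TAA 2 at 244.5 CPM and control 1 at 206 CPM, each group held 1 library more than 2 times as high as its lowest. The tightest interval was that of Des, at 99.6 ± 6.62 CPM with TAA and 97.4 ± 8.00 CPM in control libraries, a log2 fold change of 0.03 (-0.24 to 0.31). The fitted values of Tagln, Myl9, Mylk, Lmod1 and Tpm2 were between -0.20 and -0.04, with adjusted p-values of 0.8277 to 0.9695. Over the 10 genes the median log2 fold change was -0.10, beside 0.00 over all genes tested, and 8 of 10 fitted values were below 0, beside 49.8% of all genes. The median was -0.48 without TAA 2 and 0.02 without TAA 3, so its direction rested on single libraries.

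Transcripts of neighbouring organs were found in some libraries. The summed level of 11 measured acinar genes was 4.98 to 6.01 CPM in TAA+celecoxib libraries, 4.48 to 91.4 CPM in TAA libraries with TAA 2 at the top, and 4.13 to 11.5 CPM in control libraries. In TAA 2, Ctrb1 and Prss1, a chymotrypsinogen and a trypsinogen, were at 26.3 and 23.1 CPM and Reg1a was at 0 counts, and control 3 held the next highest levels of these enzymes, at 1.42 and 1.08 CPM. The summed level of 13 measured hepatocyte genes was 171 to 371 CPM in TAA+celecoxib libraries, 419 to 1609 CPM in TAA libraries with TAA 1 at the top, and 279 to 378 CPM in control libraries. Outside TAA 1 and control 1 nearly all of that sum was Tf, which encodes transferrin, so those sums rest on that gene. Tf was at 170, 369 and 274 CPM with TAA+celecoxib. It was at 538, 417 and 755 CPM with TAA, and at 149, 377 and 348 CPM in control libraries. Alb, which encodes albumin, was at 575 CPM in TAA 1 and at 89.0 CPM in control 1, and at 0 to 0.701 CPM in the other 7. The part of such tissue in the levels of the contractile genes in TAA 2, TAA 1 and control 1 was not tested.

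The second comparison sets the TAA+celecoxib libraries against those of rats that had TAA alone. None of the 10 genes passed the edgeR test, none had an unadjusted p under 0.05, and no other gene passed either (0% of genes tested, with 812 genes or 5.09% at an unadjusted p under 0.05). DESeq2 called 25 genes and limma-voom 0, with 0 members under either. Acta2 (-0.39), Tpm2 (-0.34) and Tagln (-0.32) had the lowest log2 fold changes, Myl9 was at -0.22, and Actg2 (0.28), Myh11 (0.24) and Cnn1 (0.20) had the highest, with SEs of 0.21 to 0.47 and edgeR adjusted p-values of 0.8978 to 0.934 for these 7 genes. Acta2 averaged 118 ± 26.3 CPM with TAA+celecoxib and 155 ± 77.4 CPM with TAA, and its 95% interval ran from -1.26 to 0.48. Without TAA 2 the log2 fold changes of Acta2, Tpm2 and Tagln were 0.10, 0.15 and 0.11, so their direction came from that library.

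Lmod1 was the only member whose groups did not overlap in this comparison, at 6.77 ± 0.247 CPM with TAA+celecoxib and 7.59 ± 0.369 CPM with TAA, as 5.03% of all genes did in the lower direction. Its log2 fold change was -0.17 (SE 0.21, 95% interval -0.64 to 0.30, edgeR adjusted p = 0.9191). Mylk averaged 298 ± 60.2 CPM with TAA+celecoxib and 296 ± 51.4 CPM with TAA, a log2 fold change of 0.01 (-0.41 to 0.44). Des averaged 89.3 ± 10.7 CPM with TAA+celecoxib and 99.6 ± 6.62 CPM with TAA, a log2 fold change of -0.16 (-0.43 to 0.12). The median over the 10 genes was -0.16, beside 0.01 over all genes, with 6 of 10 fitted values below 0, beside 48.8% of all genes. It was 0.13 without TAA 2.

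The third comparison, TAA+celecoxib against control, takes all its libraries from the groups of the other comparisons. None of the 10 genes passed the edgeR test, as 0% of all genes did, and none had an unadjusted p under 0.05, beside 803 genes or 5.03% of those tested. DESeq2 called 27 genes and limma-voom 0, with 0 members under either. All 10 fitted values were below 0, beside 49.8% of all genes, with a median of -0.36, beside 0.00 over all genes. Cnn1 had the lowest, with 10.9 ± 2.57 CPM with TAA+celecoxib and 17.4 ± 8.03 CPM in control libraries and a log2 fold change of -0.68 (SE 0.32, 95% interval -1.41 to 0.04, edgeR adjusted p = 0.9107). Actg2 followed at -0.53, Tpm2 at -0.45, Tagln at -0.41 and Lmod1 at -0.37, and Mylk was nearest to 0 at -0.05, with edgeR adjusted p-values of 0.9124 to 0.9983. No member had groups that did not overlap, beside 9.68% of all genes. Without control 1 the median was -0.12, Cnn1 was at -0.24, Actg2 at -0.02, Acta2 at -0.05 and Lmod1 at -0.21, and Myh11 and Tpm2 were at 0.01 and 0.07. Without TAA+celecoxib 2, Actg2 was at -1.01. Without control 1 and TAA+celecoxib 1, the libraries that stood apart, the median was -0.19 and Actg2 alone was above 0, at 0.02.

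**Figure D4:**
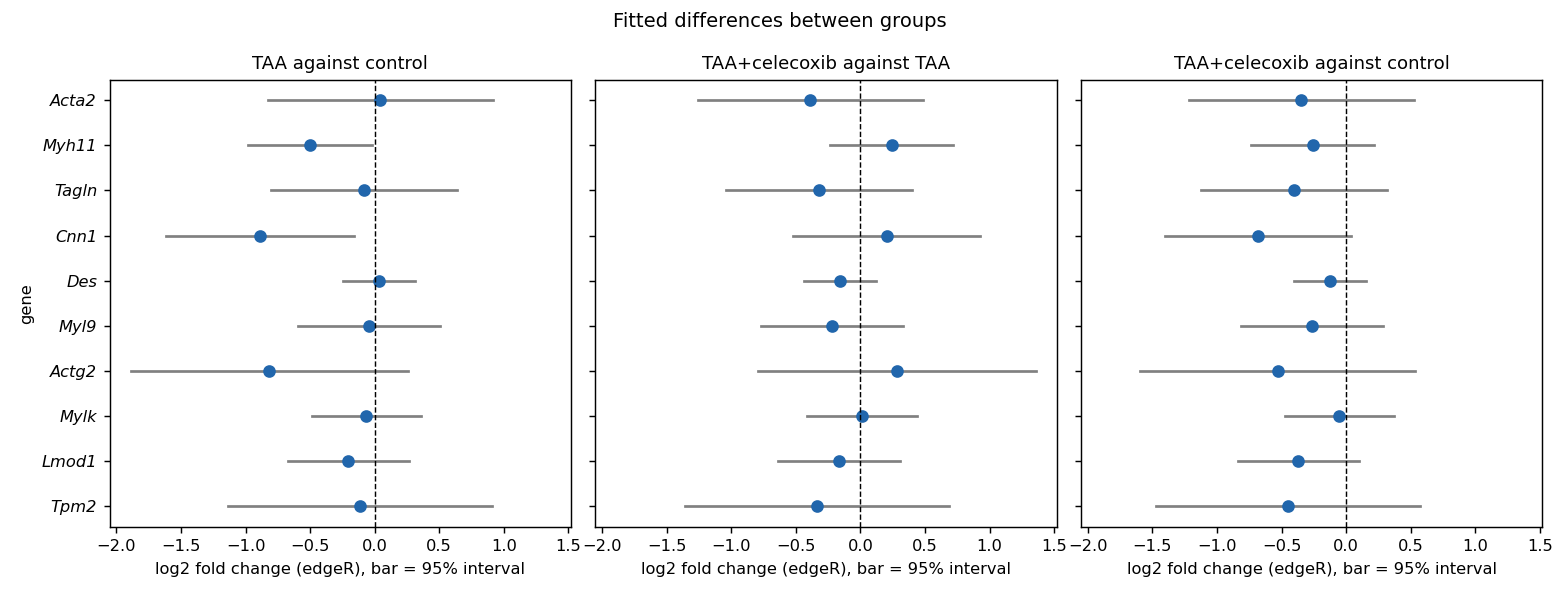
Fitted log2 fold change of each of the 10 genes (edgeR) with its 95% interval, for TAA against control, TAA+celecoxib against TAA and TAA+celecoxib against control. Only the unadjusted intervals of Cnn1 and Myh11 in TAA against control leave out 0, and no gene passed after adjustment.

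The wider contractile apparatus was looked at through 27 other contractile genes, all tested. None passed the test or had an unadjusted p under 0.05 in any comparison (edgeR). Their median log2 fold change was 0.09 for TAA against control with 18 of 27 above 0 (50.2% of all genes), -0.12 for TAA+celecoxib against TAA with 20 of 27 below 0 (48.8% of all genes), and -0.09 for TAA+celecoxib against control with 16 of 27 below 0 (49.8%). Pdlim3, a PDZ and LIM protein of the actin cytoskeleton, had the smallest p for TAA against control, at 5.60 ± 2.65 CPM with TAA and 10.2 ± 3.26 CPM in control libraries (log2 fold change -0.86, edgeR adjusted p = 0.7877). Actn1, the crosslinker alpha actinin 1, had it for TAA+celecoxib against TAA, at 158, 217 and 249.5 CPM with TAA+celecoxib and 261, 284 and 259 CPM with TAA (log2 fold change -0.36, edgeR adjusted p = 0.8898). Its groups did not overlap, as in 3 of the 27 genes, all lower with TAA+celecoxib, beside 5.03% of all genes. Myl6, the essential myosin light chain, had it for TAA+celecoxib against control, at 415 ± 114 CPM with TAA+celecoxib and 614 ± 97.6 CPM in control libraries (log2 fold change -0.57, edgeR adjusted p = 0.9107).

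Some of these genes were low where Cnn1 and Actg2 were not, and the 4 shown here were chosen after their values were seen. Pgm5, which encodes a protein of smooth muscle adhesion plaques, had 4.68, 41.6 and 46.4 CPM with TAA+celecoxib, 46.7, 46.5 and 55.0 CPM with TAA, and 6.78, 41.9 and 62.7 CPM in control libraries. Synm, the intermediate filament protein synemin, had 15.9, 51.1 and 55.0 CPM with TAA+celecoxib, 58.3, 56.5 and 98.0 CPM with TAA, and 22.1, 64.5 and 79.3 CPM in control libraries. TAA+celecoxib 1 and control 1 were the lowest libraries for both genes, and also for Sorbs2 (61.8 and 70.5 CPM, against 122 to 164 CPM in the others) and Synpo2 (25.9 and 21.2 CPM, against 34.5 to 54.6 CPM). These are the libraries that stood apart on the first principal component with low macrophage and endothelial markers, and the part of that makeup in these levels was not tested. In control 1, Cnn1, Actg2 and Myh11 were at their highest, and in TAA+celecoxib 1, Myh11 was at 116 CPM, above the other 2 libraries of its group.

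**Figure D5:**
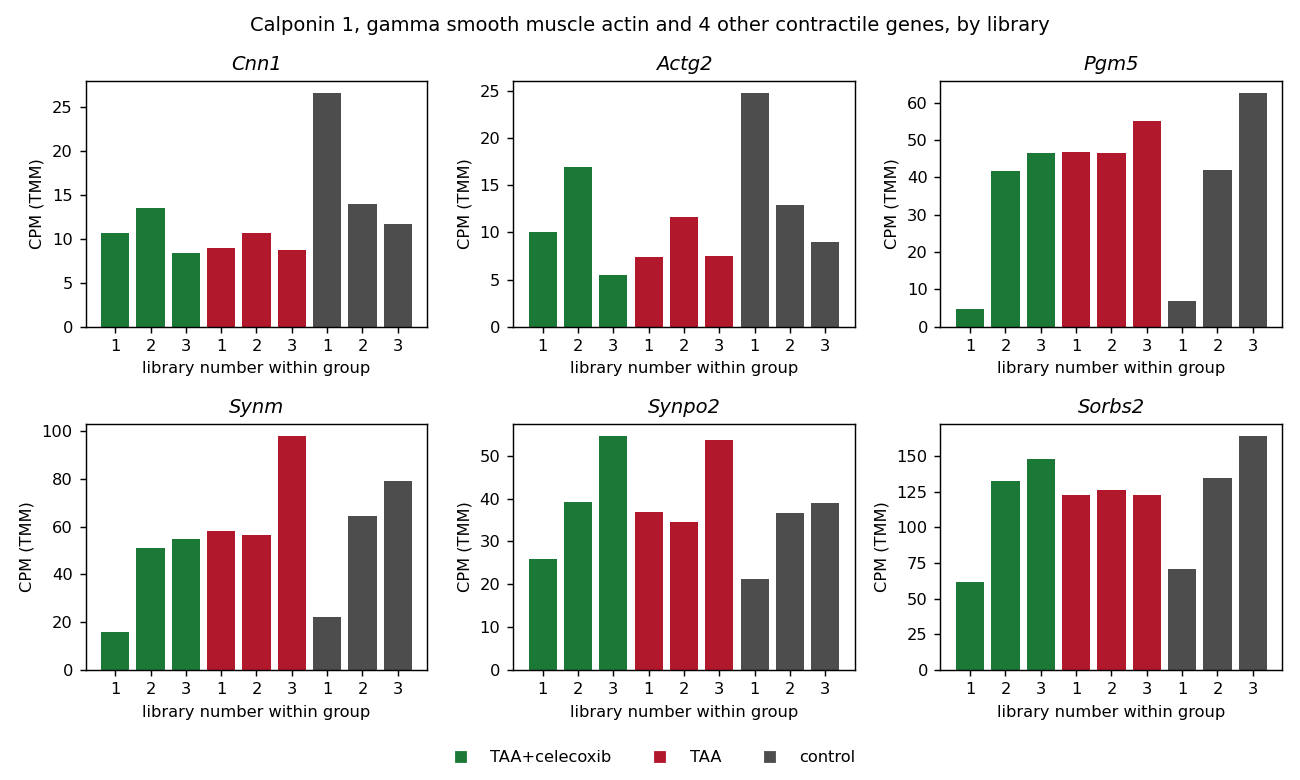
CPM (TMM) of Cnn1, Actg2, Pgm5, Synm, Synpo2 and Sorbs2 in each library, bars from 0, with TAA+celecoxib, TAA and control libraries from left to right. Pgm5 has 4.68 CPM in library TAA+celecoxib 1 and 6.78 CPM in control 1, where Cnn1 is at 10.7 and 26.6 CPM.

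Of 24 genes that control contraction, 23 were tested and none passed in any comparison. Their median log2 fold changes were 0.06, -0.17 and -0.11 for TAA against control, TAA+celecoxib against TAA and TAA+celecoxib against control. Pln, phospholamban, an inhibitor of the calcium pump of the sarcoplasmic reticulum, had an unadjusted p under 0.05 for TAA against control, which makes 1 of 23 genes beside 6% of all genes, and no gene of the list had one in the other comparisons. It had 3.16, 0.982 and 1.58 CPM with TAA+celecoxib, 0.639, 1.03 and 1.15 CPM with TAA, and 3.02, 2.61 and 1.82 CPM in control libraries. All TAA libraries lay below all control libraries (log2 fold change -1.39, SE 0.47, edgeR adjusted p = 0.7877, unadjusted p = 0.01717), and its level rests on few counts. Such a separation held for 2 of the 23 genes, beside 7.89% of all genes in that direction. For TAA+celecoxib against TAA, Pln was at 1.01 (SE 0.48, edgeR adjusted p = 0.8898), with overlapping groups. Ppp1r14a, an inhibitor of myosin phosphatase, had 8.48, 5.96 and 8.96 CPM with TAA+celecoxib and 14.3, 14.1 and 9.11 CPM in control libraries, without overlap (log2 fold change -0.68, edgeR adjusted p = 0.9107). In that comparison 1 of the 23 genes separated lower and 1 higher, beside 9.68% of all genes in either direction.

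The regulators of the contractile programme did not pass the test either. Of 13 genes around serum response factor and myocardin, 12 were tested, none had an unadjusted p under 0.05, and the medians were 0.11, -0.07 and 0.05 in the same order of comparisons. Srf, serum response factor, had 117, 83.0 and 114 CPM with TAA+celecoxib, 105, 126 and 93.6 CPM with TAA, and 132, 129 and 125 CPM in control libraries. The TAA+celecoxib libraries were all below the control libraries (log2 fold change -0.30, SE 0.16, edgeR adjusted p = 0.9124), and 1 TAA library overlapped them. Of the 12 genes, 1 separated between TAA+celecoxib and control, beside 9.68% of all genes in either direction. Myocd, myocardin, was low at 0.342 to 1.68 CPM, where 1 count equals up to 0.0710 CPM, so its level rests on few counts.

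Markers of other cells that could carry or accompany these transcripts were measured beside them. Of 14 pericyte and mural cell genes 13 were tested, with medians of -0.07, 0.08 and -0.02. For TAA against control 6 of them were above 0 and 7 below. Rgs4, a regulator of G protein signalling, had 4.62, 4.59 and 5.07 CPM with TAA, below 7.03, 6.84 and 7.63 CPM in control libraries (log2 fold change -0.59, edgeR adjusted p = 0.7877, unadjusted p = 0.01696). Such a separation held for 2 of the 13, beside 7.89% of all genes, and such a p in that direction for 1, beside 3.15%. Notch3, with the next smallest p, went the other way (log2 fold change 0.53, edgeR adjusted p = 0.7877). Of 16 reticular stroma genes 15 were tested, with medians of -0.32, 0.23 and -0.08, and the B cell chemokine Cxcl13 was found at 289, 96.2 and 133 CPM with TAA+celecoxib, 80.6, 77.7 and 61.8 CPM with TAA, and 254, 99.4 and 105 CPM in control libraries. Its TAA libraries were below the other 6, and its highest levels were those of TAA+celecoxib 1 and control 1. For TAA against control 2 of the 15 reticular stroma genes separated lower, beside 7.89% of all genes. The 16 tested fibroblast matrix genes had medians of -0.19, -0.14 and -0.28. Dcn, which encodes the proteoglycan decorin, had 2.09, 1.68 and 2.42 CPM with TAA+celecoxib, 6.75, 6.58 and 7.31 CPM with TAA, and 2.59, 2.83 and 2.85 CPM in control libraries. Its TAA libraries were above the other 6 (log2 fold change 1.32 for TAA against control and -1.73 for TAA+celecoxib against TAA, edgeR adjusted p = 0.5681 and 0.3278). Dpt, which encodes the matrix protein dermatopontin, had 94.2, 81.7 and 92.2 CPM with TAA+celecoxib, 113, 107.5 and 84.3 CPM with TAA, and 153, 202 and 124.5 CPM in control libraries, and its control libraries were all above the other 6 (log2 fold change -0.65 for TAA against control and -0.84 for TAA+celecoxib against control, edgeR adjusted p = 0.7877 and 0.9107). Of the 16 fibroblast matrix genes, 1 separated higher and 2 lower for TAA against control, the latter beside 7.89% of all genes. For TAA+celecoxib 2 separated lower against TAA (5.03% of all genes) and 2 against control (9.68% in either direction). The 16 tested endothelial genes had medians of 0.17, -0.35 and -0.15. For TAA against control 12 of them were above 0 (50.2% of all genes). For TAA+celecoxib 13 were below 0 against TAA (48.8%) and 14 against control (49.8%). No gene of these lists passed the test.

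Markers of blood cells were measured in the same libraries, and no gene of the lists given here passed the test in any comparison. Macrophage markers summed to 2715 to 6661 CPM with TAA+celecoxib, 7587 to 10390 CPM with TAA and 3396 to 6825 CPM in control libraries. Of 15 tested, 14 had fitted values above 0 for TAA against control (50.2% of all genes), and all 15 were below 0 for TAA+celecoxib against TAA (48.8%), with medians of 0.66 and -0.75. Lymphocyte markers summed to 1969 to 3274 CPM with TAA+celecoxib, 1968 to 2463 CPM with TAA and 2428 to 2861 CPM in control libraries. Of 14 tested, 6 were lower with TAA at an unadjusted p under 0.05 (3.15% of all genes), with a median of -0.53. Erythroid markers summed to 4522 to 25770 CPM with TAA+celecoxib, 5446 to 24620 CPM with TAA and 2334 to 5916 CPM in control libraries, with medians over 13 tested genes of 2.10 for TAA against control and 2.33 for TAA+celecoxib against control. The erythroid sums overlapped between all groups and were mostly Hbb, a haemoglobin gene (5485 CPM in control 2 and 20300 CPM in TAA 1). At an unadjusted p under 0.05 (edgeR), 3 of the 13 were higher for TAA against control, beside 6% of all genes in either direction. For TAA+celecoxib against control 10 of the 13 were, beside 5.03%. Megakaryocyte markers summed to 208 to 281 CPM with TAA+celecoxib, 274.3 to 383 CPM with TAA and 183 to 274.4 CPM in control libraries. Of 9 tested, 8 were above 0 for TAA against control (50.2% of all genes) and 8 below 0 for TAA+celecoxib against TAA (48.8%). Their medians were 0.63 and -0.39. All levels are shares of a library, and the part of these cells in the values of the contractile genes was not tested.

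Some markers of striated muscle were absent and others were not. Of 17 measured striated muscle genes, Actc1, Myl1 and Mb, which encode cardiac actin, a fast light chain and myoglobin, had 0 counts in all 9 libraries, where 3 counts would equal at most 0.213 CPM. Acta1, skeletal actin, was at 0.0522 to 1.73 CPM. The summed level of the list was 32.4 to 62.3 CPM in TAA+celecoxib libraries, 33.4 to 39.9 CPM in TAA libraries and 43.9 to 72.8 CPM in control libraries, led by Mylpf (18.7 to 41.1 CPM), a fast regulatory light chain, and the troponin gene Tnnt3 (5.96 to 17.9 CPM). Tnnt3 averaged 6.83 ± 1.29 CPM with TAA and 13.8 ± 3.72 CPM in control libraries, without overlap (log2 fold change -1.01, SE 0.27, edgeR adjusted p = 0.7877). For TAA against control 2 of the 8 tested genes separated lower (7.89% of all genes) and 1 higher. The medians of the 8 tested genes were -0.29, 0.29 and 0.01. Markers of the mesothelium, the outer lining of the capsule, summed to 317 to 539.5 CPM with TAA+celecoxib, 365 to 591 CPM with TAA and 359 to 1192 CPM in control libraries over 13 measured genes, led by Slpi and Msln. Control 2 (1192 CPM) and control 1 (879.7 CPM) had the highest sums, of which Slpi alone made 1019 and 748 CPM. The mean log2 CPM of the list was 2.95 in control 2 and 1.24 in control 1, where Upk3b and Upk1b were at 0 counts, beside 0.90 to 2.77 in the other libraries. The part of capsule in the levels of the contractile genes was not tested.

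Genes outside the set whose log2 CPM followed the mean of the 10 most closely were ranked over the 9 libraries among 15944 genes, as a description. LOC103689941, which the files annotate as resembling type II inositol 1,4,5-trisphosphate 5-phosphatase, came first with r = 0.96 and had 3.80, 3.37 and 2.48 CPM with TAA+celecoxib, 1.99, 18.0 and 2.30 CPM with TAA, and 15.9, 11.3 and 2.73 CPM in control libraries. TAA 2, control 1 and control 2 were its high libraries, as for the mean of the 10 genes, which follows from how the gene was picked. The next were Plppr5, Tmem184b, Anp32a, Pigp, Pdzd11, Cacna1h, LOC100910882, Cadm3 and AABR07039218.1, with r between 0.88 and 0.91. Cacna1h, a T-type calcium channel, was the only one of them on the list of genes that control contraction, at 0.701 to 1.73 CPM.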

How the data were processed

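RNA of rat spleen in 9 samples was sequenced after TRIzol isolation, per the labels' protocols. The authors deposited read counts per gene (whole numbers, not normalized) and FPKM values, each equal to the count divided by gene length and a constant of the library. The submitters' processing notes name HISAT2 2.0.5 and mRatBN7.2. How reads were assigned to genes, from which annotation and with which strand setting, is not given in the sources used here, so overlapping or antisense genes could share reads. The coordinates in the deposited files do not name their build.

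Samples were grouped by the treatment label. The main test was edgeR 4.0.16 (R 4.3.3): a quasi-likelihood model with group as its only term over the 9 libraries, TMM, filterByExpr (minimum count 10, total 15; 15954 genes kept), 2-sided, Benjamini-Hochberg adjustment over all tested genes, threshold 0.05. The SE is the absolute log2 fold change over the square root of F. CPM used TMM library sizes, log2 CPM a prior count of 2, and the common biological coefficient of variation was 0.311. With 3 libraries a group an exact permutation test cannot go below p = 0.1. Chi-square per degree of freedom between libraries of a group was 17.5 to 122, so none was a duplicate. The test was tried on simulated data.

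The 10 genes and the lists of related genes and markers were chosen with earlier results of these data known. Named genes are the 10 members and the 10 genes most correlated with the members' mean. Up to 3 genes of a list with the smallest p in a comparison were also named. Other named genes, among them Upk3b, Upk1b, Ctrb1, Prss1, Reg1a and Tf, were picked with their values known, and only some are marked so. Protein sequences of paralogs were not analysed here. Alternatives were normalization by DESeq2 size factors, library totals or TMM without blood and mitochondrial genes, 2 other filters, DESeq2 1.42.0, limma-voom (limma 3.58.1), a fit of only the groups compared, the replicate number as a block, and leaving out libraries. Promoter sequences are from RefSeq (GRCr8), matched by gene symbol.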

Additional observations from a re-analysis of the deposited data

How the results depend on the processing

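The count of members past the threshold was 0 in all 3 comparisons under every alternative tried, DESeq2 and limma-voom included. Over all genes, DESeq2 called 58 genes for TAA against control (31 higher), 25 for TAA+celecoxib against TAA (11 higher) and 27 for TAA+celecoxib against control (15 higher), where edgeR called 0, and the cause was not tested. With only the 2 groups compared in the fit, 1 gene was called for TAA+celecoxib against control. Leaving out 1 library at a time gave 0 to 1, 0 to 3 and 0 to 2 called genes in these comparisons. The median log2 fold change of the 10 genes ran from -0.48 to 0.021 for TAA against control, from -0.22 to 0.13 for TAA+celecoxib against TAA and from -0.57 to -0.12 for TAA+celecoxib against control.

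Of the fitted values of single genes, 4 changed sign under settings other than leaving out 1 library. Without control 1 and TAA+celecoxib 1 together, Tagln was at 0.016 and Tpm2 at 0.40 for TAA against control and Actg2 at 0.024 for TAA+celecoxib against control, and with library totals Mylk was at -0.013 for TAA+celecoxib against TAA. Leaving out 1 library turned 29 values, none of them called. For TAA against control the ranges were -0.45 to 0.34 (Acta2), -0.52 to 0.12 (Tagln), -0.033 to 0.082 (Des), -0.31 to 0.12 (Myl9), -0.22 to 0.044 (Mylk) and -0.60 to 0.41 (Tpm2). For TAA+celecoxib against TAA they were -0.60 to 0.10 (Acta2), -0.52 to 0.11 (Tagln), -0.43 to 0.047 (Myl9), -0.20 to 0.60 (Actg2), -0.16 to 0.17 (Mylk) and -0.58 to 0.15 (Tpm2). For TAA+celecoxib against control they were -0.42 to 0.008 (Myh11), -0.23 to 0.057 (Mylk) and -0.77 to 0.073 (Tpm2).

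Same-numbered libraries did not all deviate together (correlations of deviations from -0.21 to 0.47), so the numbers were not taken as pairs. With the replicate number as a block, 0 genes were called in each comparison and the members' medians were -0.09, -0.16 and -0.30. Each member had at least 97 counts per library.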
